A study of Mus musculus with 12 samples.

Results

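The comparison set GFP-sorted cells of the large intestinal crypt beside unsorted crypt epithelium in mice heterozygous for Tert, the gene of the telomerase reverse transcriptase. It used 5 of the 12 RNA sequencing libraries of the series, chosen by their labels: 3 sorted libraries and 2 unsorted ones. All 5 came from C57BL/6 mice aged 3 months with the genotype mTert_HET, so both arms carried the same loss of 1 Tert allele, and no Tert wild-type library was used here. The labels class the sorted cells as stem/progenitor cells and the unsorted ones as epithelial cells, and the series design names the sorted cells CBC cells. Neither the promoter that drove GFP nor the animals behind a library are given, so whether a library was a pool of animals is not given either, and every p-value below measures the spread between libraries, which may be technical. The 7 other libraries came from Tert-null mice, 3 of sorted cells at generation 3 (null G3) and 2 of unsorted crypts at generation 4 (null G4), and from generation 4 crypts labelled as reactivated (2 libraries). The descriptions of the reactivated libraries carry the tag G4tam. All 7 came from mice aged 3 months, and they are used below only to set values beside those of the heterozygous arms.

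The colonic crypt is a pit lined by a single layer of epithelium. Stem cells at its base, which carry the receptor LGR5, divide and give rise to dividing progenitors. Their offspring move upwards as they mature into absorptive colonocytes, mucus-filled goblet cells, hormone-releasing enteroendocrine cells and chemosensory tuft cells. Wnt signals are strongest at the base, and BMP signals towards the surface. A whole-crypt library holds all of these cells, stem cells included, so a sorted-to-unsorted difference is one between a fraction and the whole that contains it. In such bulk samples fewer cells of a type and less RNA per cell cannot be told apart.

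The table listed 24551 genes for both the sorted and the unsorted set. Of these, 16773 were protein-coding, and 16705 remained after 13 mitochondrially encoded genes and 55 histone genes, whose RNAs mostly lack a poly(A) tail, were left out. The composition of the libraries differed between the arms: the 2 mitochondrial ribosomal RNAs took 38.7% to 53.6% of the summed RPKM (reads scaled by gene length and by the library's total) of the sorted libraries and 19.2% to 27.3% of the unsorted ones. The genes used held 18.95% to 22.05% and 42.2% to 45.3% of that sum. The 5 libraries were therefore quantile normalized together, which gives each the same distribution of values. Between 8032 and 8561 of the genes used reached a deposited RPKM of 1 in the sorted libraries, and 9541 and 9671 in the unsorted ones. Low RPKM values of the same genes were divided by those of unsorted replicate 1. The 2 commonest ratios lay between 0.413 and 0.587 in the sorted libraries and were 0.994 and 1.988 in unsorted replicate 2.

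Most expressed genes differed between the arms. Of 9654 genes tested (normalized RPKM of 1 or more in at least 2 of the 5 libraries), 3233 were called higher in sorted cells, 33.5% of those tested, and 2949 were called lower, 30.5%, by limma on log2(normalized RPKM + 1) with a Benjamini-Hochberg adjusted p under 0.05. A difference of at least 1 on the log2 scale was seen for 998 of the former and 1118 of the latter. These 2 shares are the background against which each gene list below is read. On the deposited values, without quantile normalization, the median of all tested genes shifted to -0.36 on the log2 scale and the calls split into 1453 higher and 4395 lower. The differences given below are on the log2 scale of the normalized values, sorted minus unsorted, and understate the change of genes with low values. Levels are deposited RPKM.

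Y-linked genes also moved with the comparison. Of the Y chromosome, Kdm5d, a histone demethylase, was at 0.0266, 0.00608 and 0.00681 RPKM in the sorted heterozygous libraries and at 5.47 and 5.87 in the unsorted ones. Eif2s3y, Ddx3y and Uty, the other Y-linked genes tested, were likewise near 0 in the former (at most 0.0174 RPKM) and between 3.01 and 5.22 RPKM in the latter, and these 4 genes were singled out after their values were seen. The labels used here do not give the sex of the mice. A difference in sex between the arms and the sorting cannot be told apart in any heterozygous sorted-to-unsorted difference below. Among null libraries Kdm5d was at 3.37 RPKM in sorted null G3 replicate 2 and at most 0.0133 in the other 2 sorted and the 2 unsorted ones.

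Base composition moved with the comparison. Tested genes were put into 5 classes of equal size by GC content of the longest coding transcript. In the lowest class (20.6% to 44.2% GC) 1034 genes were called higher and 194 lower, while in the highest class (55.6% to 68.9% GC) 267 were called higher and 1149 lower. Across 9650 genes, which are not independent replicates, Spearman's correlation of the difference with GC content was -0.44, and with transcript length 0.20. After GC content and length were fitted out of each library, 2771 genes were called higher and 2807 lower. Both fits called 2283 genes higher and 2179 lower, and 5 genes were called in opposite directions. The part of GC content in any single gene's difference was not tested, and calls of named genes that were lost after the correction are given beside them.

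**Figure D1:**
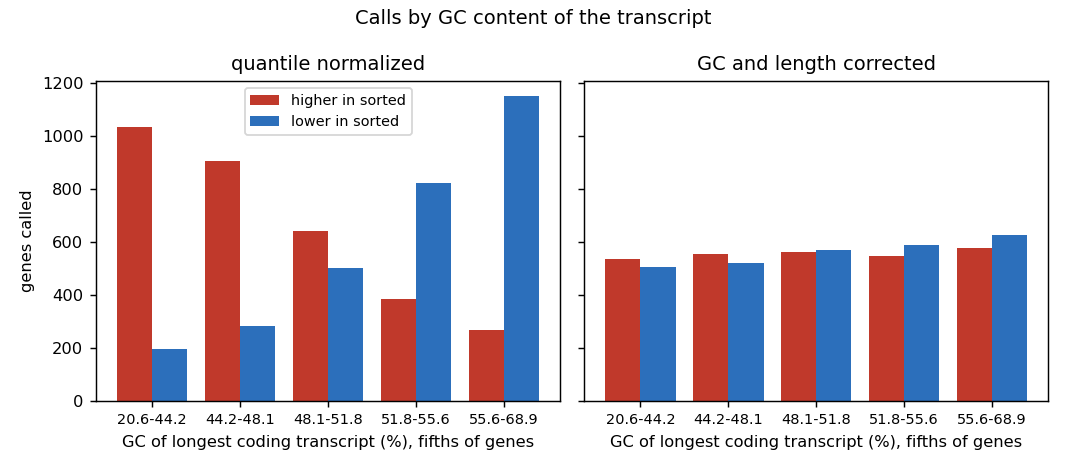
Number of genes called higher (red) or lower (blue) in sorted than in unsorted heterozygous libraries, in 5 equal classes of tested genes by GC content of the longest coding transcript (x axis, in percent), before (left) and after (right) GC content and length were fitted out. Calls swing from 1034 higher and 194 lower in the lowest class to 267 and 1149 in the highest before the correction, and stand at 534 and 506 in the lowest and 575 and 626 in the highest after it.

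The 3 marker genes differed in the direction of the labels. Lgr5 (chr10:115450311-115587780, minus strand, mm10), the receptor that marks crypt base stem cells, stood at 3.40, 4.24 and 4.72 RPKM in the sorted libraries and at 0.928 and 0.813 in the unsorted ones. The groups did not overlap, and Lgr5 was higher in sorted cells by 1.82 (SE 0.18, adjusted p = 0.0001026). Aqp8 (chr7:123462291-123468004, plus strand), the water channel of surface colonocytes, stood at 0.598, 0.219 and 0.104 RPKM in sorted and at 10.9 and 59.8 in unsorted libraries, a difference of -4.14 (SE 0.53, adjusted p = 0.0002977). Every sorted value was far below both unsorted ones, which themselves lay wide apart. Fcgbp (chr7:28071236-28120862, plus strand), a protein of goblet cell mucus, stood at 43.8, 11.1 and 24.6 RPKM in sorted and at 442 and 383 in unsorted libraries, a difference of -3.83 (SE 0.48, adjusted p = 0.0002634). Tert itself was too low to be tested, with 0.0424, 0.0583 and 0.169 RPKM in sorted and 0.459 and 0.251 in unsorted libraries.

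**Figure D2:**
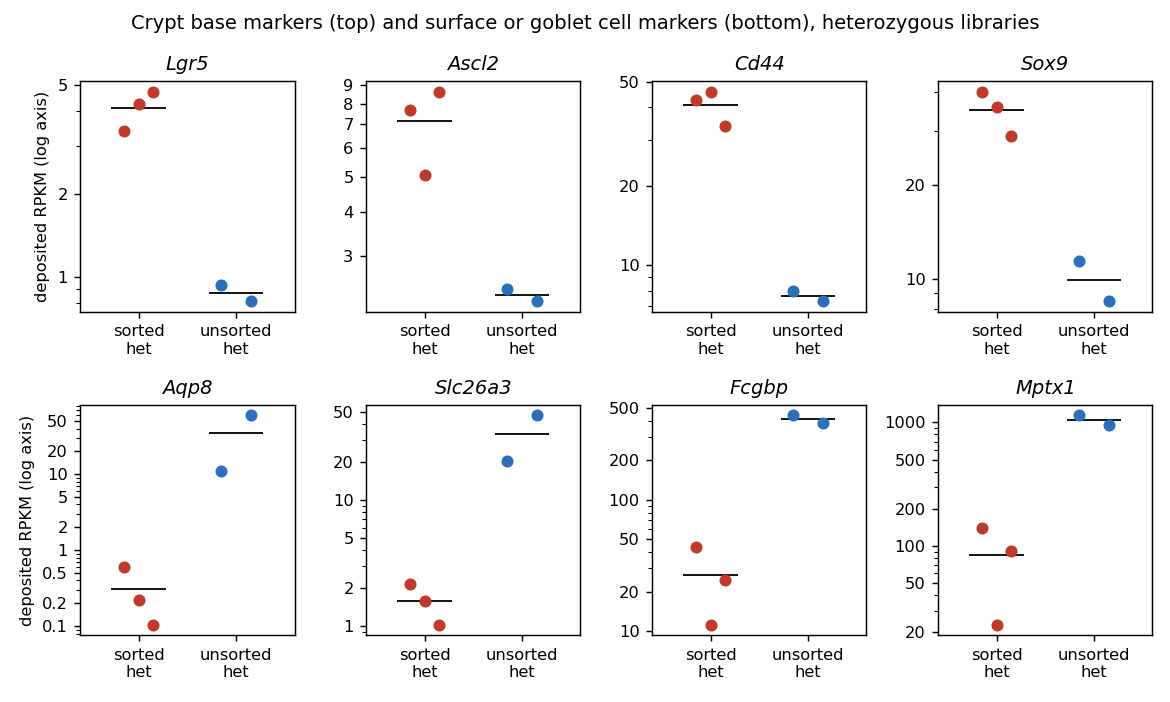
Deposited RPKM (log axis) of 4 crypt base genes (top row) and 4 surface or goblet cell genes (bottom row) in the 3 sorted and 2 unsorted heterozygous libraries. Points are libraries and lines are group means; Lgr5 lies between 3.40 and 4.72 in sorted and at 0.813 and 0.928 in unsorted libraries, and in each panel the groups stand apart.

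Epithelial identity was present in both arms. Epcam, an adhesion protein of all gut epithelium, was at 269, 270 and 216 RPKM in sorted and 211 and 277 in unsorted libraries, and did not pass the test (0.33, adjusted p = 0.11). Krt8, a keratin of simple epithelia, was at 182, 149 and 99.3 RPKM in sorted and 642 and 866 in unsorted libraries, lower by 2.11 on the log2 scale (adjusted p = 7.05e-05). Krt18, its partner keratin, and Cdx2, a transcription factor of intestinal identity, were also lower in sorted cells, with differences of -1.07 and -1.67. Lists of other cell types had few tested members. None of the 15 listed markers of endothelial cells and none of the 11 of glia and neurons passed the filter. Cdh5 and Kdr, receptors of blood vessel endothelium, were at 0 in all 3 sorted libraries. Of 21 listed T cell genes 5 were tested and none was called (Cd3e, a chain of the T cell receptor complex, stood at 2.68, 0.433 and 1.09 RPKM in sorted and 0.476 and 1.30 in unsorted libraries). The summed RPKM of that list ran from 2.53 to 18.3 in sorted and from 10.1 to 25.9 in unsorted libraries. Among fibroblast and smooth muscle genes 3 of each list were tested and 1 of each was called higher, with summed RPKM of 5.19 to 7.06 in sorted and 5.19 to 6.62 in unsorted libraries for the former and of 19.8 to 25.8 and 19.3 to 24.1 for the latter. Tpm1, the smooth muscle gene called higher, made up most of that list's sum, at 22.15, 21.49 and 16.87 against 13.55 and 16.03 RPKM. The 1 tested gene of the B and plasma cell list (Xbp1) and the 1 of the erythroid list (Hbb-bs) were called lower. Summed RPKM was 15.2 to 16.6 against 31.4 to 32.2 for the former list and 0.27 to 0.916 against 5.08 to 23.2 for the latter. Nearly all of the former sum was Xbp1, at 16.05, 15.93 and 14.17 against 30.46 and 30.68 RPKM. The part of other cells in the results was not tested.

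Genes of the crypt base stem cell formed a group that leaned towards sorted cells. Of 28 listed members 25 were tested, of which 17 were called higher, 1 lower and 7 neither, beside the 33.5% of all tested genes called higher. Their median difference was 0.79, beside 0.05 over all tested genes, and 0.71 after the GC and length correction. Cd44, the hyaluronan receptor and a Wnt target of the crypt base, stood at 42.6, 46.0 and 34.1 RPKM in sorted and 7.96 and 7.30 in unsorted libraries, a difference of 2.56 (SE 0.13, adjusted p = 1.478e-05). No unsorted library came near the sorted ones. Cdk6, a cyclin-dependent kinase of early G1 phase, followed with 27.6, 28.4 and 24.0 against 7.05 and 6.24 RPKM, a difference of 2.15. Sox9, a transcription factor of the crypt base, was at 40.1, 35.9 and 28.9 against 11.4 and 8.46 RPKM, a difference of 1.98.

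Other stem cell genes were also called higher. Ascl2, the transcription factor that maintains the Lgr5 stem cell, was at 7.71, 5.07 and 8.65 RPKM in sorted and 2.44 and 2.25 in unsorted libraries, a difference of 1.65 (SE 0.24, adjusted p = 0.0005992). Olfm4, which in mice marks stem cells chiefly of the small intestine, was at 7.40, 4.30 and 5.01 RPKM in sorted but at 0.257 and 2.89 in unsorted libraries (1.87), with a wide gap between the 2 unsorted libraries. Mex3a, an RNA-binding protein of slowly cycling Lgr5 cells, was at 1.61, 1.56 and 1.71 against 0.508 and 0.332 RPKM. Scn2b, a sodium channel subunit, differed by 1.88 and Slc12a2, the basolateral chloride importer of crypt cells, by 1.19. Hopx and Tnfrsf19, 2 further stem cell markers, differed by 0.79 and 0.82.

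Several stem cell markers were near the threshold or not called. Smoc2, a secreted matrix protein of Lgr5 cells, was at 9.65, 14.2 and 8.25 RPKM in sorted and 9.32 and 7.31 in unsorted libraries, so its deposited values overlapped. Its difference of 0.60 (adjusted p = 0.02735) was lost without sorted replicate 2 (adjusted p = 0.0745) and without unsorted replicate 2 (adjusted p = 0.209). Bmi1 (0.55) and Esrrg (0.62) were called but were lost after the GC and length correction. Without unsorted replicate 2, Bmi1 had an adjusted p of 0.0985 and Esrrg of 0.076, and without unsorted replicate 1 that of Bmi1 was 0.163. Lrig1, which restrains growth factor receptors in stem cells, went the other way, with 9.01, 11.5 and 8.79 RPKM in sorted and 22.1 and 17.8 in unsorted libraries, a difference of -0.69 that did not pass after the correction or without unsorted replicate 1 (adjusted p = 0.0955). Cdca7, Prom1, Ephb2, Ephb3, Rgmb, Soat1 and Kcne3 were not called, and Msi1, Igfbp4 and Fstl1 were below the filter. With all 12 libraries fitted together 11 stem cell genes were called higher and none lower. On the deposited values the counts were 12 and 3.

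The Wnt pathway list gave 10 genes called higher and 3 lower of 19 tested, with a median of 0.77. Feedback genes are switched on by the pathway and then restrain it. Of these, Znrf3, Axin2 and Rnf43 were counted above in the stem cell list. Znrf3, which is not among the 19, encodes a ligase that removes Wnt receptors. It was at 6.78, 6.44 and 5.12 RPKM in sorted and 1.616 and 1.504 in unsorted libraries, a difference of 1.84. Axin2, a scaffold of the complex that destroys beta-catenin, was at 10.7, 10.3 and 7.22 against 6.19 and 5.92 RPKM, a difference of 0.86 (adjusted p = 0.0006716). Rnf43, the partner ligase of ZNRF3, differed by 0.63 (adjusted p = 0.008819), which did not pass without unsorted replicate 2 (adjusted p = 0.0566). Myc, a growth-promoting transcription factor and Wnt target, stood at 25.1, 24.7 and 31.98 RPKM in sorted and 5.47 and 5.59 in unsorted libraries, a difference of 2.42. Tcf7l2, the factor that carries the Wnt signal to DNA in gut epithelium, differed by 1.51, and Gsk3b, the kinase that marks beta-catenin for destruction, by 1.45. Wls, needed to secrete Wnt ligands, was lower, at 5.70, 4.89 and 4.32 against 13.2 and 14.7 RPKM (difference -1.03).

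Dividing-cell genes were the next group on the sorted side. Of 33 proliferation genes tested, 26 were called higher and 1 lower, with a median of 1.16 (0.95 after the GC and length correction). Cenpe, the motor protein that moves chromosomes at the centromere, was at 19.0, 16.4 and 15.3 RPKM in sorted and 3.35 and 3.34 in unsorted libraries, a difference of 2.40 (SE 0.13, adjusted p = 1.478e-05). Ube2c, which tags mitotic cyclins for destruction, was at 25.2, 23.8 and 19.7 against 4.78 and 5.38 RPKM, a difference of 2.298. Tpx2, which builds the mitotic spindle, differed by 1.72. The 1 gene called lower was Plk1, a mitotic kinase, at 13.3, 14.4 and 9.64 against 26.9 and 23.1 RPKM. Its call did not hold after the correction or without unsorted replicate 1 (adjusted p = 0.0577). DNA replication genes gave 24 higher and 2 lower of 35 tested, with a median of 0.65. Lig1, which joins fragments of the lagging strand, was at 17.1, 17.5 and 11.5 against 5.46 and 4.72 RPKM, a difference of 1.72, and Prim1, the primase, differed by 1.24. With the 12 libraries fitted together 13 proliferation and 8 replication genes were called higher, and on the deposited values 20 and 10.

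Ribosome and telomerase assembly shared their leading genes. Among 30 ribosome biogenesis genes 18 were called higher and 6 lower, with a median of 0.49. Ncl (nucleolin), a major protein of the nucleolus, was at 58.3, 59.4 and 50.4 RPKM in sorted and 10.6 and 10.6 in unsorted libraries, a difference of 2.54 (SE 0.14, adjusted p = 1.478e-05). Gar1 and Dkc1, proteins of the H/ACA particle that modifies ribosomal RNA and also stabilizes telomerase RNA, differed by 2.29 and 1.90. Gar1 was at 13.2, 11.7 and 9.06 against 2.17 and 2.25 RPKM. Bop1, which matures the large ribosomal subunit, was lower by 1.15 on the log2 scale. The list of telomerase and end-protection genes gave 8 higher and 4 lower of 15, of which Gar1 and Dkc1 belong to both lists. Terf2, which caps chromosome ends, was higher (1.04), and Tep1, which binds telomerase RNA, was lower (-1.42). On the deposited values 8 ribosome biogenesis genes were called higher and 8 lower. Without unsorted replicate 2 the counts were 11 and 3 for ribosome biogenesis, with 4 end-protection genes called higher, and without unsorted replicate 1 only 2 ribosome biogenesis genes were called lower and 5 end-protection genes higher.

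Chaperones gave one of the most one-sided lists. Of 19 heat shock genes tested 16 were called higher and none lower, with a median of 0.99. Hsp90b1, the chaperone of the endoplasmic reticulum, was at 196, 152 and 147 RPKM in sorted and 33.0 and 37.0 in unsorted libraries, a difference of 2.42 (SE 0.18, adjusted p = 3.422e-05). Hspd1, the mitochondrial chaperonin, was at 132, 116 and 95.7 against 38.8 and 45.6 RPKM, a difference of 1.63. Hspa4, a cytosolic chaperone, differed by 1.42. With the 12 libraries fitted together 10 were called higher, and after the GC and length correction 14 were higher and 1 lower. Immediate early genes, which cells switch on within minutes of a signal or of handling, were mixed, with 9 higher and 4 lower of 21 tested. Egr1, one of the first of them to respond, was at 8.91, 33.3 and 11.5 RPKM in sorted and 0.412 and 1.00 in unsorted libraries, a difference of 3.58 (SE 0.42), with sorted replicate 2 well above the other sorted libraries. Zfp36, which destabilizes inflammatory RNAs, differed by 2.34. Junb and Jund, subunits of the AP-1 factor, were lower, Junb at 1.23, 2.03 and 0.756 against 17.2 and 20.4 RPKM (-2.78). Without sorted replicate 2 the list gave 8 higher and 8 lower.

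Among the lists with at least 8 tested members, absorptive colonocyte genes had the lowest median, -1.77, beside 0.05 over all tested genes. Of 32 tested members 24 were called lower, where 30.5% of all tested genes were, and 3 were called higher. Slc26a3, the chloride and bicarbonate exchanger of the surface, was at 2.17, 1.58 and 1.02 RPKM in sorted and 20.2 and 46.9 in unsorted libraries, a difference of -3.33 (SE 0.27, adjusted p = 4.432e-05). Slc20a1, a phosphate importer, was at 1.03, 0.724 and 0.885 against 13.7 and 24.3 RPKM (-3.01). Cyp2d34, a cytochrome P450, differed by -3.15, and Krt20, the keratin of mature surface cells, by -1.72. As with Aqp8, unsorted replicate 2 held more of these RNAs than unsorted replicate 1: Krt20 was at 54.1 and 148 RPKM in the 2 libraries. Ceacam1, an adhesion protein of the brush border, was among the 3 members called higher, at 470, 414 and 385 against 160 and 246 RPKM (1.22). With the 12 libraries fitted together 15 members were called lower and none higher.

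Transport and detoxification lists leaned the same way as the colonocyte list, with which they share members. Slc26a3 is also in the water and ion transport list, and Cyp2d34 in that of xenobiotic enzymes and pumps. In the water and ion transport list 18 of 29 tested genes were called lower and 5 higher, with a median of -0.87. Slc4a2, a bicarbonate exchanger, was at 3.74, 3.35 and 2.24 RPKM in sorted and 17.1 and 19.6 in unsorted libraries (-1.93), and Slc5a8, which takes up butyrate and related short-chain fatty acids, at 7.07, 7.83 and 5.51 against 25.4 and 24.9 RPKM (-1.48). Atp1b1, a subunit of the sodium pump, was higher, at 307, 259 and 227 against 146 and 165 RPKM (1.04). Xenobiotic enzymes and pumps gave 24 lower and 4 higher of 31, with a median of -1.16. Ces2e, a carboxylesterase, was at 2.64, 1.53 and 1.30 against 14.1 and 43.3 RPKM (-2.90), and Abcb1a, a drug export pump, at 9.85, 6.78 and 5.06 against 28.7 and 64.5 RPKM (-2.22). Gstm1, a glutathione transferase, was among the 4 higher ones, at 186, 175 and 107 against 56.9 and 63.0 RPKM (1.499). It has 1 near-identical copy in the annotation. The 24 lower calls of this list became 13 without unsorted replicate 2 and 10 with the 12 libraries fitted together.

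Lists of energy metabolism were also tested. Fatty acid oxidation genes gave 18 lower and 2 higher of 27 tested, with a median of -0.63. Acads, the dehydrogenase for short-chain fatty acids such as butyrate, was at 3.47, 3.88 and 2.88 RPKM in sorted and 43.0 and 56.5 in unsorted libraries, a difference of -3.25 (SE 0.12, adjusted p = 6.288e-06). Acadvl, its counterpart for very long chains, was at 0.840, 0.984 and 0.624 against 14.1 and 19.5 RPKM (-2.95). Slc16a1, which carries lactate and butyrate, was at 7.78, 8.99 and 6.70 against 25.4 and 46.4 RPKM (-1.75). Glycolysis genes also leaned lower, with 10 lower and 2 higher of 17, led by Pfkl, a phosphofructokinase (-2.18), Pkm, the muscle-type pyruvate kinase (-1.76), and Hk1, a hexokinase (-1.54). Gapdh, one of the 2 higher ones (1.29), has 42 near-identical copies in the annotation, and how reads shared with copies were counted is not given in the sources used here. Cholesterol synthesis genes gave 12 lower and 3 higher of 23, among them Hmgcs1, the synthase at the start of the pathway (-1.19), and Fdps, which makes farnesyl diphosphate (-1.34). Citric acid cycle genes gave 9 lower and 3 higher of 21, near even in median (-0.07). With the 12 libraries fitted together 9 fatty acid oxidation genes and 8 cholesterol genes were called lower.

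Goblet cell genes were lower in sorted cells, although their most abundant RNA was not called. Of 28 tested genes 18 were lower and 1 higher, with a median of -0.92. Muc2, the mucin that forms the gel, was at 800, 593 and 1212 RPKM in sorted and 2210 and 2150 in unsorted libraries, and its normalized difference of -0.61 did not pass (adjusted p = 0.24). The symbol Muc2 was used by more than 1 row of the table, and the row with the protein-coding identifier was taken. Zg16, a lectin of the mucus, was at 89.5, 18.4 and 56.6 against 200 and 443 RPKM (-2.40, adjusted p = 0.00731), and Tff3, the trefoil peptide, at 64.6, 49.7 and 51.3 against 109 and 206 RPKM (-1.21). Scin, an actin-severing protein, differed by -2.61 and Nans, a sialic acid synthase, by -1.78. Creb3l1, a transcription factor of secretory cells, was the gene called higher, at 144, 148 and 150 against 55.7 and 41.9 RPKM (1.78). Sorted replicate 2 held the least Fcgbp, Zg16 and Muc2 of the 3 sorted libraries.

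Deep crypt secretory genes, which belong to goblet-like cells that lie between the stem cells, gave 7 lower and 2 higher of 19. Spink4, a secreted protease inhibitor, was at 220, 178 and 193 RPKM in sorted and 737 and 723 in unsorted libraries (-1.44). Cd24a, a surface protein of crypt base cells, was at 402, 326 and 395 against 117 and 137 RPKM (1.78, adjusted p = 0.0001355). The Notch and secretory fate list gave 8 lower and 4 higher of 20. Spdef, the factor that matures goblet cells, was at 8.34, 10.13 and 10.04 against 52.0 and 43.2 RPKM (-1.97), and Hes6, an antagonist of the Notch target HES1, at 4.01, 3.53 and 2.70 against 18.9 and 16.6 RPKM (-1.79). Notch2, a receptor of the pathway, was slightly higher (0.63), and its deposited values stood at 1.64, 1.76 and 1.44 against 1.21 and 1.31 RPKM. After the GC and length correction the list gave 5 lower and 6 higher, so its lean did not hold, and its median turned from -0.16 to 0.12. On the deposited values none was called higher, and without unsorted replicate 1 only 4 were called lower.

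BMP and hedgehog genes were called in both directions. Id1, a direct target of BMP signals, was at 6.17, 4.82 and 3.79 RPKM in sorted and 34.4 and 39.6 in unsorted libraries, a difference of -2.42 (SE 0.14, adjusted p = 1.809e-05). Ihh, the hedgehog ligand made by mature colonocytes, was at 2.80, 3.71 and 3.00 against 15.4 and 17.3 RPKM (-1.73), and Smad7, a BMP and TGF-beta feedback inhibitor, differed by -1.07. The receptors Bmpr1a (1.32) and Bmpr2 (1.44) and the signal carrier Smad1 (1.06) were higher, Bmpr1a at 16.7, 14.1 and 16.0 against 6.35 and 8.26 RPKM. In all 4 genes of this list were called higher and 6 lower of 13 tested, with a median of -0.41 that ran from -0.81 to 0.10 over the alternatives.

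Rare cell types differed in both directions. Tuft cell genes gave 7 higher and 2 lower of 16, with a median of 0.45 that ran from -0.00684 to 1.44 over the alternatives. Cd24a, described above, is one of the 7, and its level far exceeds that of the other members. Pou2f3, the factor that specifies tuft cells, was at 2.62, 1.07 and 2.52 RPKM in sorted and 0.496 and 0.936 in unsorted libraries (1.19, adjusted p = 0.005273). Dclk1, a kinase used as their marker, was at 5.18, 2.01 and 3.62 against 1.68 and 1.76 RPKM (1.11, adjusted p = 0.007598), and its call did not hold after the GC and length correction. Sorted replicate 2 held the least of both, and without it 11 members were called higher. Enteroendocrine genes gave 8 higher and 5 lower of 16, which divided among the hormones. Gcg, the proglucagon gene of L cells, was at 54.1, 40.8 and 35.6 against 11.7 and 14.5 RPKM (1.88), and Sst, somatostatin, at 8.94, 6.85 and 13.1 against 2.07 and 2.08 RPKM (2.14). In contrast Pyy, peptide YY, which mature colonic L cells make, was at 4.75, 4.91 and 4.20 against 13.1 and 14.7 RPKM (-1.11), and Insl5, another hormone of colonic L cells, differed by -1.47. Chga, a protein of hormone granules, was at 6.41, 2.21 and 3.34 against 9.93 and 13.5 RPKM (-1.10), a call that did not hold after the correction. With genes of every level kept, 2 tuft genes were called higher and 1 lower, and 6 enteroendocrine genes higher and 1 lower. Without sorted replicate 3, 5 enteroendocrine genes were called higher.

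**Figure D3:**
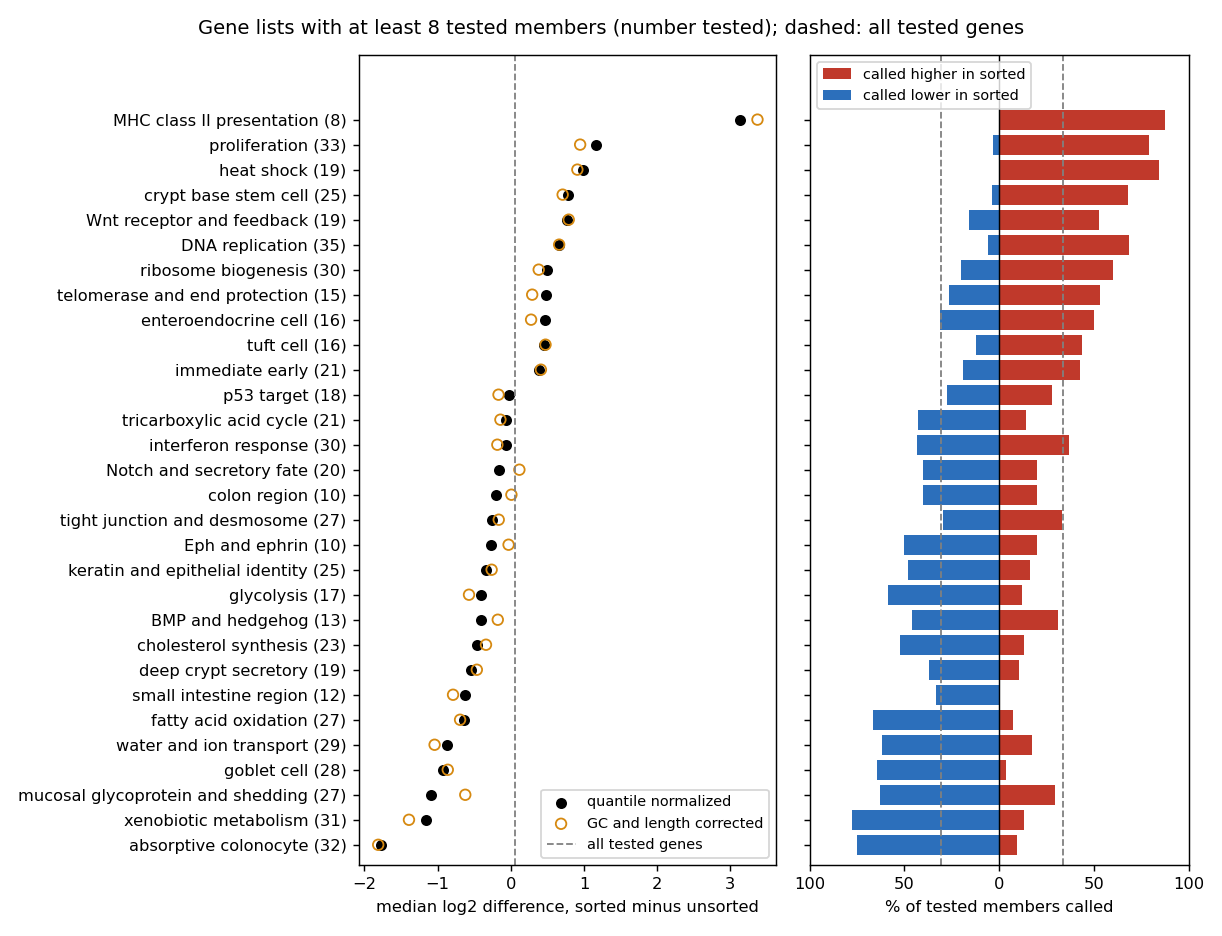
Left, median log2 difference (sorted minus unsorted) of each gene list with at least 8 tested members, with quantile normalization (filled) and after the GC and length correction (open). Right, percent of tested members called higher (red) or lower (blue), with dashed lines at the 33.5% and 30.5% of all tested genes; MHC class II leads at a median of 3.13 and absorptive colonocyte genes close at -1.77.

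The 15 largest differences towards sorted cells included 4 genes of MHC class II presentation, the pathway by which cells show peptides to CD4+ T cells and which gut epithelium can switch on in response to interferon gamma. Cd74, the invariant chain that loads these molecules, was at 500, 708 and 343 RPKM in sorted and 13.7 and 18.4 in unsorted libraries, the largest difference of all genes named (5.08, SE 0.23, adjusted p = 1.478e-05). H2-Ab1 and H2-Aa, the 2 chains of the I-A molecule, were at 115, 196 and 94.3 against 3.58 and 5.78 RPKM (4.87) and at 62.2, 127 and 48.3 against 1.94 and 3.59 RPKM (4.64). H2-Eb1, a chain of I-E, was at 34.2, 57.7 and 29.9 against 3.19 and 4.42 RPKM (3.38). In each of these 4 genes sorted replicate 2 was the highest of the 5 libraries. The list as a whole gave 7 higher and none lower of 8 tested, with a median of 3.13. Beyond the 4 chains above it included H2-DMa (2.88) and H2-DMb1 (1.79), which edit the peptide cargo, and Ciita, the transactivator of the pathway, at 1.15, 1.84 and 1.44 against 0.476 and 0.558 RPKM (1.05). The last 3 were singled out after their values were seen.

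Other groups of the series did not share the low MHC class II levels of the unsorted heterozygous libraries. Cd74 was at 511 and 604 RPKM in the unsorted null G4 libraries and at 569 and 483 in the reactivated ones, all within the range of the sorted heterozygous libraries. In sorted null G3 libraries it was at 283, 416 and 421 RPKM. H2-Ab1 likewise was at 136 and 159 RPKM in unsorted null G4 crypts and at 104, 107 and 111 in sorted null G3 cells. Between the null sorted and unsorted libraries, which share no library with the heterozygous comparison but differ in generation, the median of the list was -0.09. For Cd74, H2-Ab1, H2-Aa and H2-Eb1 the 2 unsorted heterozygous libraries were the lowest of the 12. Of macrophage markers, which belong to cells that also carry MHC class II, Csf1r was at 0, 0.000974 and 0.00108 RPKM, and C1qa at 0.00537, 0.00457 and 0 RPKM, below its 1.498 and 2.185 in unsorted libraries. Of 24 myeloid genes 5 were tested. C1qa was called lower, while Itgam, an integrin of myeloid cells, was called higher, at 1.24, 1.12 and 0.856 against 0.134 and 0.218 RPKM. Cd14, a co-receptor for bacterial lipopolysaccharide, was also called higher, at 11.4, 11.1 and 6.12 against 6.37 and 5.59 RPKM. Its deposited values overlapped, and its call was lost on them and with the 12 libraries fitted together. The list had a summed RPKM of 23.6 to 43.3 in sorted and 35.3 to 57.9 in unsorted libraries, and the part of myeloid cells in these results was not tested.

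**Figure D4:**
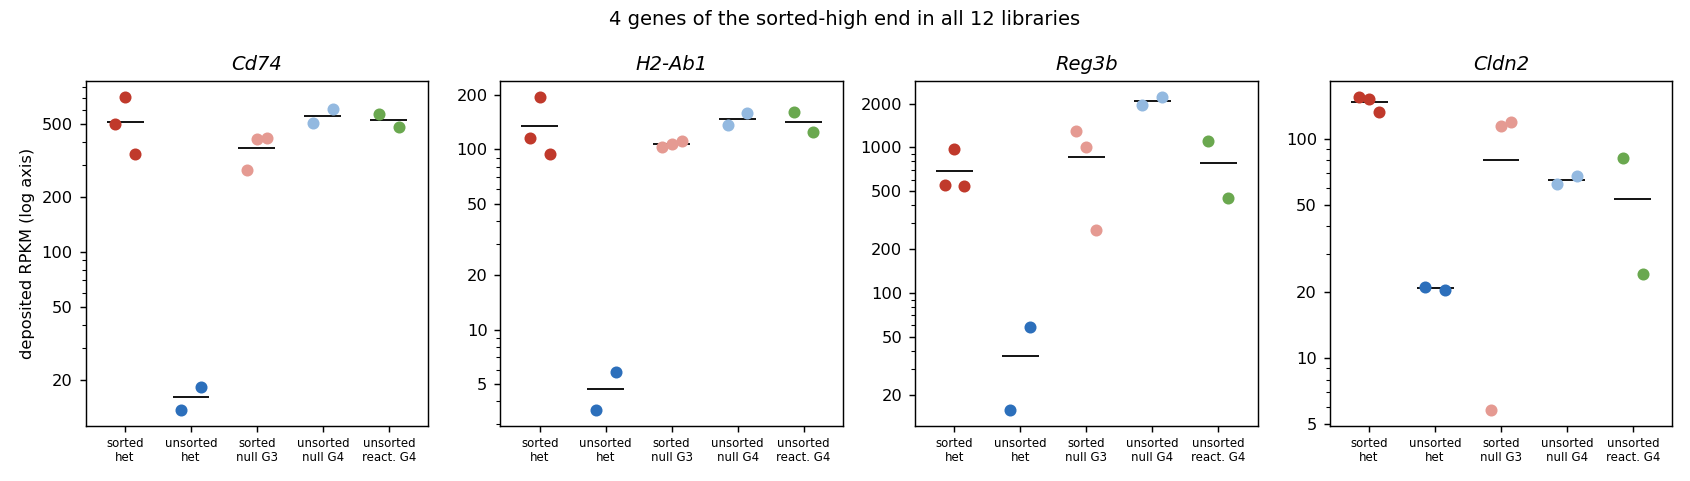
Deposited RPKM (log axis) of Cd74, H2-Ab1, Reg3b and Cldn2 in all 12 libraries by group. Points are libraries and lines are group means; Cd74 lies at 13.7 and 18.4 in unsorted heterozygous libraries and between 283 and 708 in the other 10.

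Sequences just before the starts of 2 of these genes show the letters of the Y box, an element of MHC class II promoters bound by the factor NF-Y. They are shown because the genes move together, were chosen after the values were seen, and come from the RefSeq promoter table (GRCm38.p6). Each run holds the 250 bases before the gene start, 5' to 3' on the gene's strand, with CTGATTGG, the Y box letters searched on both strands, in capitals. The match starts 51 bases before the start of H2-Aa (chr17:34287824-34288073, minus strand) and 62 bases before that of H2-Eb1 (chr17:34305617-34305866, plus strand). The table holds a window for 9 list members, and 3 of them held these letters (H2-Aa, H2-Eb1 and H2-Oa), as did 4.07% of all 27025 windows of the same length. H2-Oa was below the filter on low values.
H2-Aa: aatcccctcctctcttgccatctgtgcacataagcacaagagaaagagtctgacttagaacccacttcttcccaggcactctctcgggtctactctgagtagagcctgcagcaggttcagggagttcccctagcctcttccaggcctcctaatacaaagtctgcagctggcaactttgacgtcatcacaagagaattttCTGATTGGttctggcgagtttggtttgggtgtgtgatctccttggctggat
H2-Eb1: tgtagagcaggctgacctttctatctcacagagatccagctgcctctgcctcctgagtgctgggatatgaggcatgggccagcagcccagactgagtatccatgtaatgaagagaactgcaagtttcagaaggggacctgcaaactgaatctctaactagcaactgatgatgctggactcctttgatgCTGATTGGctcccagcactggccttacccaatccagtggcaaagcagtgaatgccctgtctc

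Interferon response genes as a wider list were called in both directions. Of 30 tested, 11 were called higher and 13 lower, with a median of -0.07, and 7 were higher without unsorted replicate 1 and 8 lower without unsorted replicate 2. On the deposited values 6 were higher and 15 lower, and after the GC and length correction 8 and 12. Psmb9 and Psmb8, subunits of the immunoproteasome that cuts peptides for presentation, were at 9.80, 24.8 and 11.2 against 2.01 and 2.83 RPKM (2.52) and at 12.3, 20.1 and 9.14 against 2.70 and 4.24 RPKM (2.04). Iigp1, a GTPase induced by interferon gamma, was at 5.19, 12.2 and 9.97 against 1.13 and 1.43 RPKM (2.46). In unsorted null G4 libraries Psmb9 was at 15.18 and 17.57 RPKM, Psmb8 at 26.35 and 32.47 and Iigp1 at 14.75 and 16.79. Between null sorted and unsorted libraries they differed by 0.11, -0.36 and -0.59. Without sorted null G3 replicate 1 these differences were 0.14, -0.45 and 0.36. Other members were called lower. Irf7, the factor that amplifies the type I interferon response, was at 1.70, 1.68 and 0.735 against 8.14 and 20.98 RPKM (-2.25), Mx1, an antiviral GTPase, at 0.0518, 0.0907 and 0.0608 against 3.00 and 1.88 RPKM (-1.39), and Oas1a, a sensor of double-stranded RNA, at 3.37, 3.59 and 2.68 against 10.5 and 15.2 RPKM (-1.38).

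The antimicrobial lectins Reg3b and Reg3g shared the MHC class II pattern. Reg3b was at 548, 978 and 541 RPKM in sorted and 15.7 and 58.5 in unsorted heterozygous libraries (4.63, SE 0.42), but at 1941 and 2228 in unsorted null G4 crypts. Reg3g was at 32.1, 73.8 and 34.9 against 2.55 and 12.99 RPKM (3.00) and at 155 and 174 in unsorted null G4 crypts. In sorted null G3 libraries Reg3b stood at 1289, 1010 and 271 RPKM. Both genes were lowest, of the 12 libraries, in the 2 unsorted heterozygous ones.

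Other genes with the largest differences towards sorted cells were of mixed function. Cldn2, the tight junction protein that forms a pore for sodium and water in crypts, was at 156, 153 and 133 RPKM in sorted and 21.1 and 20.5 in unsorted libraries (3.01, SE 0.16, adjusted p = 1.478e-05). It was at 62.5 and 68.0 RPKM in the unsorted null G4 libraries and at 82.3 and 24.3 in the reactivated ones. Between null sorted and unsorted libraries Cldn2 differed by 0.69, and by 1.82 without sorted null G3 replicate 1. Ifitm3, an antiviral membrane protein, was at 245, 335 and 180 against 14.4 and 12.9 RPKM (4.37). Lars2, the mitochondrial leucyl-tRNA synthetase, was at 484, 571 and 264 against 18.0 and 13.7 RPKM (4.92), and was as far apart in the null libraries (5.42), where mitochondrial ribosomal RNA also took more of the sorted libraries. Whether Lars2 moves with ribosomal RNA in the libraries was not tested. Anp32b, a histone chaperone, was at 143, 138 and 88.3 against 5.56 and 5.65 RPKM (4.49), and Ywhaz, a 14-3-3 adaptor protein, at 206, 195 and 138 against 23.2 and 29.1 RPKM (2.98). Hmgn5, a nucleosome-binding protein (3.79), S100a11, a calcium-binding protein (3.59), and Prelp, a matrix proteoglycan (3.31), complete the 15. Anp32b, Hmgn5, Prelp and Ywhaz each have 1 near-identical copy in the annotation and S100a11 has 2 (at least 95% identity over at least 200 bases of transcript), so their values are uncertain where the counting could split or drop shared reads.

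Another 15 genes had the largest differences towards unsorted crypts. Phgr1, a small protein abundant in gut epithelium, was at 4.04, 3.79 and 3.03 RPKM in sorted and 85.2 and 154 in unsorted libraries, the most negative of the genes named (-4.40, SE 0.16, adjusted p = 6.288e-06). Mpst, which makes hydrogen sulfide from mercaptopyruvate, was at 2.42, 2.18 and 1.73 against 38.6 and 91.8 RPKM (-3.96). Lgals3, galectin 3, was at 18.5, 11 and 8.41 against 118 and 248 RPKM (-3.48). Mptx1, a pentraxin of the colon, was at 140, 23.0 and 91.8 against 1145 and 954 RPKM (-3.78, SE 0.66), again with sorted replicate 2 lowest. Gsdmc2 and Gsdmc3, gasdermins of the surface epithelium, differed by -3.46 and -3.61, and Gsdmc2 and Gsdmc3 each have 1 near-identical copy. Slc37a2, a sugar phosphate exchanger (-3.75), Efcab4b, a calcium sensor of store-operated channels (-3.38), the carboxylesterases Ces2a (-3.23) and Ces2c (-3.17), and Slfn4, of the Schlafen family (-3.23), were the rest of the 15 beside Aqp8, Fcgbp, Slc26a3 and Acads. Slfn4 was at 0.0428, 0.125 and 0.217 against 9.16 and 14.3 RPKM. Of the other genes given with values, 1 near-identical copy exists for each of Slc37a2, Efcab4b, Krt8, Hspd1, Hsp90b1, Abcb1a, Bmi1, Bmpr1a, H2-DMb1, Hmgcs1, Itgam, Jund, Kdm5d, Lig1, Mx1, Notch2, Oas1a, Pkm and Psmb9, 2 for Ces2c and Slc20a1 and 3 for Fdps, and their values carry the same uncertainty.

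**Figure D5:**
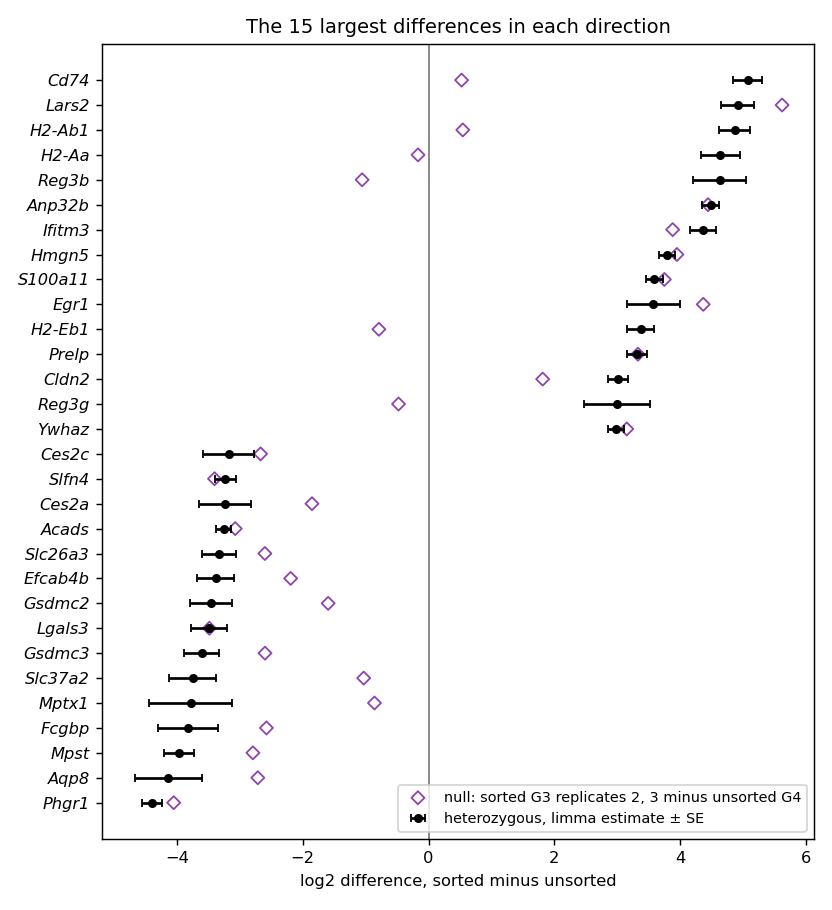
Log2 difference (sorted minus unsorted) of the 15 genes with the largest difference in each direction. Filled points are the heterozygous estimate with its SE and open diamonds the difference in null libraries without sorted null G3 replicate 1; Cd74, H2-Ab1, H2-Aa, H2-Eb1, Reg3b and Reg3g lie between 3.00 and 5.08 in heterozygous libraries and between -1.05 and 0.55 in null ones.

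The direction of most calls was shared by libraries outside the comparison. Between sorted null G3 and unsorted null G4 libraries the difference had the same sign for 91.5% of genes called higher and 93.1% of genes called lower, beside 83.7% of all tested genes. Without sorted null G3 replicate 1, in which mitochondrial ribosomal RNA took 71.9% of the summed RPKM, these shares were 97.1%, 97.5% and 89.1%. Any difference in how the sorted and unsorted sets were made is common to both comparisons, and the generations and genotypes differ, so these shares are a description. Absorptive colonocyte genes had a median of -1.06 in the null libraries and stem cell genes one of 0.63. Proliferation, DNA replication and ribosome biogenesis genes had medians of -0.10, -0.07 and -0.18, and of 0.42, 0.32 and 0.26 without sorted null G3 replicate 1. Xenobiotic genes had one of 0.33, and -0.15 without it.

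The letters of 2 gut transcription factor motifs were counted before the starts of stem cell and colonocyte genes, as a description only. CTTTG, the core of the TCF/LEF motif through which Wnt signals act, on either strand, was in 5 of 22 stem cell windows of 250 bases (22.7%), in 16 of 32 colonocyte windows (50%) and in 48.8% of all 27025 windows. Median GC content of the windows was 59.2%, 53.8% and 52% in the same order. The longer CTTTGA, which contains CTTTG, was in 1 of 22 (4.55%), 6 of 32 (18.8%) and 14% of all windows. TTTAT, the core of the CDX motif, was in 7 of 22 (31.8%), 12 of 32 (37.5%) and 38.1%. Lgr5 is not in the table. As examples, the window of Cd44 (chr2:102901666-102901915, minus strand), the stem cell list's largest difference, holds CTTTG or its reverse complement once, from 163 bases before the start, and that of Aqp8 (chr7:123462044-123462293, plus strand) holds TTTAT once, from 6 bases before it. Both are RefSeq windows on GRCm38.p6, 5' to 3' on the gene's strand, with the match in capitals.
Cd44: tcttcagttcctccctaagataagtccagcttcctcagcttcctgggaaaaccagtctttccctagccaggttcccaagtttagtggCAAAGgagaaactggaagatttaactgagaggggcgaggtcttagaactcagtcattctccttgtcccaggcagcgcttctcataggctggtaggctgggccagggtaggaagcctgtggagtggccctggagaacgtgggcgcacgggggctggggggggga
Aqp8: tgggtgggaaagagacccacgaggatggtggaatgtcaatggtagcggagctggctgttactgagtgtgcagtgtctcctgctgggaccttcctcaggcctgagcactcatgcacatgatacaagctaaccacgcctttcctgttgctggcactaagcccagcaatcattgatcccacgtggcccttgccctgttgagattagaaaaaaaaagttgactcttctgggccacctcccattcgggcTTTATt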

How the data were processed

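The 12 libraries were made from total RNA (RNeasy Mini) with a TruSeq RNA kit, per the labels' protocols. The authors deposited 1 table of RPKM for 28793 genes; STAR 2.3.0e and mm10 are named in the submitters' processing notes, without role, and the gene annotation and counting are not given in any source used here. Read counts were not used here, and because the RPKM steps of each sorted library had more than 1 size, no depth was derived. Protein-coding genes (GENCODE M21) listed for both sets were kept, without mitochondrially encoded and histone genes. Deposited RPKM of the 5 heterozygous libraries were quantile normalized together, and log2(RPKM + 1) was tested with limma 3.58.1 in R 4.3.3 (two-sided, variances moderated along a mean trend) on genes at 1 or more in at least 2 libraries, with Benjamini-Hochberg adjusted p under 0.05 over all 9654 genes. The fit was tested on simulated data. Python 3.11.15 was used for counting and plots. Near-identical copies were found with minimap2 (at least 95% identity over at least 200 bases).

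The genes named were the markers, the 15 largest called differences in each direction (predicted genes left out), in each list up to 3 called members of smallest p in each direction (2 members as not called where none was), and any crypt base stem cell gene; defining markers and a few MHC class II genes were added. The members and lists were chosen with earlier results of these data known. Alternatives were deposited values, median scaling, rank scores, all 12 libraries, another pseudocount and other filters, all listed genes, a replicate block, no trend and leaving out each library. The GC and length correction (natural splines with 4 degrees of freedom) was chosen after seeing the data. Replicate numbers in the labels do not state a shared animal or batch. A few genes are not reported here.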

Additional observations from a re-analysis of the deposited data

Results flagged for a closer look

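For 9 of the genes reported here, every sorted library lay on one side of the unsorted ones in heterozygous mice and on the other side in null mice, on the normalized scale. The difference between the 2 genotypes was not tested, the null libraries differ in generation (G3 sorted, G4 unsorted), and sorted null G3 replicate 1 stands apart from the others.

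Of these, 4 belong to antigen presentation or its proteasome. H2-Eb1 differed by 3.38 in heterozygous and -0.86 in null libraries. H2-DMb1 differed by 1.79 and -1.79, Ciita by 1.05 and -0.85, and Psmb8 by 2.04 and -0.36. Cd14, a co-receptor for bacterial lipopolysaccharide, differed by 0.87 and -1.43. Ciita was at 0.73, 1.23 and 1.13 RPKM in sorted null G3 and 7.23 and 7.53 in unsorted null G4 libraries.

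Rbp2, a retinol-binding protein of the small intestine, differed by -1.16 in heterozygous and 3.43 in null libraries, and Apob, the apolipoprotein of chylomicrons, by -0.97 and 2.53. Their sorted null G3 replicate 1 values of 614 and 330 RPKM were far above the 2.97 and 2.99 (Rbp2) and the 2.99 and 4.01 (Apob) of the other sorted null libraries. Pnliprp2, a pancreatic lipase relative, differed by -1.81 and 1.35, with 5.95 RPKM in that replicate and 0.182 and 0.216 in the others. Cyp51, of cholesterol synthesis, differed by 0.40 and -0.72, and its heterozygous call was lost after the GC and length correction (adjusted p = 0.482 by limma) and when any of sorted replicates 1 and 2 or unsorted replicates 1 and 2 was left out. Without sorted null G3 replicate 1 the null differences were 1.20 for Rbp2, 0.45 for Apob, 0.22 for Pnliprp2, -0.15 for Cyp51 and -0.54 for Cd14. The heterozygous calls of Rbp2 and Apob were lost without sorted replicate 2 (adjusted p = 0.0535 and 0.0741) and without unsorted replicate 2 (0.0714 and 0.176), and that of Apob also without sorted replicate 3 (0.0649).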

How the results depend on the processing

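Of 205 called genes with values checked one by one, 134 kept their call and all kept their sign under every alternative in which they could be tested (13 to 16 of 16), while 71 lost the call under at least 1: 45 with the 12 libraries fitted together, 28 on the deposited values, 23 with genes of every level kept and 21 after the GC and length correction. On the deposited values 1453 genes were called higher, against 3233, and with a filter at 5, which left 4710 genes, 1830 were called higher and 1625 lower. Leaving out 1 library in turn gave 2404 to 3175 higher and 1923 to 2933 lower calls, lowest for the former without unsorted replicate 2 and for the latter without unsorted replicate 1, when the lone unsorted library is assumed to vary like the sorted ones. The fit with a replicate block called 3065 higher and 2795 lower. The labels tie no numbers to a shared animal or batch, and with 2 unsorted libraries, whose deviations mirror each other, the pairing could not be checked. The share of tested genes with the same direction in null libraries moved from 83.7% to 89.1% without sorted null G3 replicate 1. Genes that were not called and changed sign were Prom1 (-0.0302 after the correction, and -0.0109 to 0.594 when 1 library was left out), Ephb2 (-0.076 on the deposited values), Ephb3 (0.332 and -0.292 to 0.145, in the same order), Soat1 (-0.0389 on the deposited values and -0.191 after the correction) and Kcne3 (0.0339 with median scaling); the cause was not tested. With no read counts used, counting error is unknown, and the number of libraries limits the precision.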

Other observations

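Genes of cell shape and position were called in both directions. Of all tested genes 33.5% were called higher and 30.5% lower. Keratin and epithelial identity genes gave 12 lower and 4 higher of 25 tested. Klf5, a transcription factor of crypt progenitors, was higher in sorted cells by 1.65, and Elf3, a factor of maturing epithelium, was lower (-1.55). Among tight junction and desmosome genes 9 were higher and 8 lower of 27 (2 and 12 on the deposited values), near the shares of all tested genes. They included Marveld2, a protein of contacts between several cells (1.16), and Tjp3, a scaffold (-2.09). Hoxb13, a marker of the distal colon, differed by -2.43. In the p53 list both shares were under those of all tested genes. Of 18 tested genes of the p53 list 5 were higher and 5 lower, with 2 and 8 on the deposited values and 2 lower when either unsorted library was left out. Trp53 itself was at 33.2, 30.7 and 15.01 RPKM in sorted and 5.10 and 4.58 in unsorted libraries (2.46), and Bax, which promotes cell death, was lower (-1.60).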
